A study of Homo sapiens with 12 samples.

Results

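Collagen chains and the enzymes that modify them were followed across *LAPTM4B* knockdown and serum withdrawal in Calu-6 cells, a human lung cancer cell line. A gene was included when an array feature carried its symbol alone and the symbol was that of a collagen alpha chain, of lysyl oxidase (*LOX*) or its relatives *LOXL1* to *LOXL4*, of a lysyl hydroxylase (*PLOD1* to *PLOD3*), or of a prolyl 4-hydroxylase alpha subunit (*P4HA1* to *P4HA3*). This gave 54 genes of the 18417 measured by such features, 43 of them collagen chains and 11 of them modifying enzymes. Where a gene had several features, the one with the highest mean signal was kept. In 10 of the 54 genes that mean lay under 6.5 on the log2 scale, and these are called dim here because a probe so close to the bottom of the signal range may miss a change. *COL17A1* had no feature with 1 symbol and was not analysed here.

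The cells had been transfected with a pool of scrambled siRNA (siControl) or of siRNA against *LAPTM4B* (siLAPTM4B) and were moved on the following day to medium with 0% FBS (serum-starved) or with 10% FBS, in 3 biological replicates for each of the 4 combinations. All groups share the cell line and the transfection reagent, Lipofectamine RNAiMAX. RNA was collected 48 h after the medium change and 72 h after transfection and was hybridised to Affymetrix Human Gene 1.0 ST arrays. The deposited values are log2 signals, so a difference of 1 is a doubling of signal.

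Collagens are triple helices of 3 alpha chains that cells secrete into the extracellular matrix, where they form fibrils, basement membrane networks or the beaded filaments of type VI collagen. In the endoplasmic reticulum, prolyl 4-hydroxylases hydroxylate proline residues, which stabilises the helix, and lysyl hydroxylases hydroxylate the lysines that later carry cross-links. Outside the cell, lysyl oxidases oxidise lysines so that chains cross-link. Lung cancer cells are known to make some of these proteins themselves, although most of the fibrillar collagen of a tumour is made by fibroblasts.

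*LAPTM4B*, a lysosomal membrane protein and the target of the siRNA, fell in siLAPTM4B relative to siControl cells, by 1.42 on the log2 scale without serum, and it fell by 1.75 with 10% FBS (SE 0.05 and 0.04, limma adjusted p = 8.6e-06 and 6.4e-07). Replicates of a group correlated at 0.998 to 0.999 over all features. The lung carcinoma label was compared with cell type markers. Of 6 epithelial markers, *KRT8* and *KRT18* had mean signals of 12.89 and 12.23 and *CDH1* was dim at 6.21. Of 7 fibroblast markers, *DCN*, *FAP* and *POSTN* were dim on every group mean, whereas *PDGFRA*, *PDGFRB*, *LUM* and *THY1* had means of 8.61, 8.49, 7.83 and 7.0. Of 4 leukocyte markers *PTPRC* was dim, and *CD68*, *CD14* and *CD3E* read 10.29, 7.42 and 6.74. Of 4 endothelial markers *KDR* was dim, and *CDH5*, *VWF* and *PECAM1* read 7.33, 6.75 and 6.52. On serum withdrawal in both siRNA groups *EPCAM* and *PDGFRA* rose, and *KRT7*, *LUM*, *PDGFRB*, *CD14* and *CD68* fell. On knockdown *PDGFRB* and *LUM* fell in both media, *KRT7* fell without serum and *EPCAM* rose with 10% FBS. The log2 group means were also summed over the genes of each list. Across the groups these sums ranged from 45.8 to 49.4 for the fibroblast list and from 58.3 to 59.4 for the epithelial list. They ranged from 29.2 to 30.3 for the leukocyte list and from 26.8 to 26.9 for the endothelial list. Sums of log2 values grow with the number of genes, so they compare groups within a list and not the lists. The part of these markers in the collagen results was not tested. All arrays are of 1 cell line, so a signal from a marker gene does not by itself show another cell type. In RNA from whole cultures, fewer cells making a transcript and less of it per cell cannot be told apart.

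Promoters are printed for the 5 genes that supplied the 4 largest increases on serum withdrawal in either siRNA group, to show the sequence in front of the genes that moved most. They come from RefSeq on GRCh38.p14 and give the 250 bases before the annotated start, read 5′ to 3′ on the strand of the gene. Capitals mark matches to the hypoxia response element core, ACGTG or GCGTG on either strand. This core is bound by hypoxia-inducible factors, of which *P4HA1*, *PLOD2* and *LOX* are known targets.
P4HA1: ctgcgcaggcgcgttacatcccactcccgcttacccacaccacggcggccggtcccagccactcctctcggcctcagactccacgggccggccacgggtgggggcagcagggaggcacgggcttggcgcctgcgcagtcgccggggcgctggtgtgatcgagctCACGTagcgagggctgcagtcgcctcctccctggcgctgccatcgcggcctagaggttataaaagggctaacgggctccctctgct
PLOD2: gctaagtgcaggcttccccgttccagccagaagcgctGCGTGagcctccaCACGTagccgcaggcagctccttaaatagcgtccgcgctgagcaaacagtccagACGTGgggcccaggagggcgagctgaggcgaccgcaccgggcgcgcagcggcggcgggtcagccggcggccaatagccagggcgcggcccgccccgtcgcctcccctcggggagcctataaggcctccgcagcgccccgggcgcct
LOX: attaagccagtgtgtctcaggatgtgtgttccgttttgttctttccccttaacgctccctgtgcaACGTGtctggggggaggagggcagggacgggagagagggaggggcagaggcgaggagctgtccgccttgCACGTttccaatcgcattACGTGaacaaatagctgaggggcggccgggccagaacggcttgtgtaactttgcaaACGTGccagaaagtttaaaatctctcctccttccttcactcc
COL6A2: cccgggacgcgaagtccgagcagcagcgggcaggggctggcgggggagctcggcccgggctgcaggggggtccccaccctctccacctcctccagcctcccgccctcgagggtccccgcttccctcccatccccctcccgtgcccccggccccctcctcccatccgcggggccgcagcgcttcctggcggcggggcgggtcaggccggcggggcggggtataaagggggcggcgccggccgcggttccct
COL6A3: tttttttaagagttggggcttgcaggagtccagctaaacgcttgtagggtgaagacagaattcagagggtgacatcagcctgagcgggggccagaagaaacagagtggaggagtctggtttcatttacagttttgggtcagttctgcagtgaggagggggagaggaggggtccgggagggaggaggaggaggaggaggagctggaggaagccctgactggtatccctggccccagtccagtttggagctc
The windows are chr10:73096867-73097116, minus strand, for *P4HA1*, chr3:146161185-146161434, minus strand, for *PLOD2*, chr5:122078260-122078509, minus strand, for *LOX*, chr21:46097862-46098111, plus strand, for *COL6A2* and chr2:237414165-237414414, minus strand, for *COL6A3*. *LOX* held 4 matches, *PLOD2* held 3, *P4HA1* held 1, and *COL6A2* and *COL6A3* held 0. Across the 35116 promoters of the table, read over the same 250 bases, 43.2% held at least 1 match, 7.76% held 3 or more and 3.22% held 4 or more. Of the 54 genes, 40 had an entry, and 17 of these 40 promoters (42.5%) held a match. The GC box GGGCGG was found in 22 of the 40 promoters and in 42.6% of all, and the TATA box TATAAA in 5 of the 40 and in 10.7% of all. These matches describe letters in a window, and binding of a factor was not measured on these arrays.

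Serum withdrawal in siControl cells asks what loss of serum does to these genes when *LAPTM4B* is intact. The 3 main chains of type VI collagen, 2 of 3 prolyl 4-hydroxylase subunits, 2 of 3 lysyl hydroxylases and *LOX* rose, and *LOXL1* and *LOXL2* fell. A gene is called here when its adjusted p is under 0.05, and 14 of the 54 were, 10 higher and 4 lower. Over all 19460 features tested, 26.0% were called, 13.2% higher and 12.9% lower, so the count of 14 (25.9%) was that of the array as a whole. The calls were spread unevenly, with 7 of the 11 modifying enzymes and 7 of the 43 collagen chains. All 10 dim genes were collagen chains, and the part of signal level in this split was not tested. The median log2 fold change of the 54 genes was -0.02, beside -0.02 over all features. The heat map of log2 fold changes shows how they fell on the classes.

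**Figure D1:**
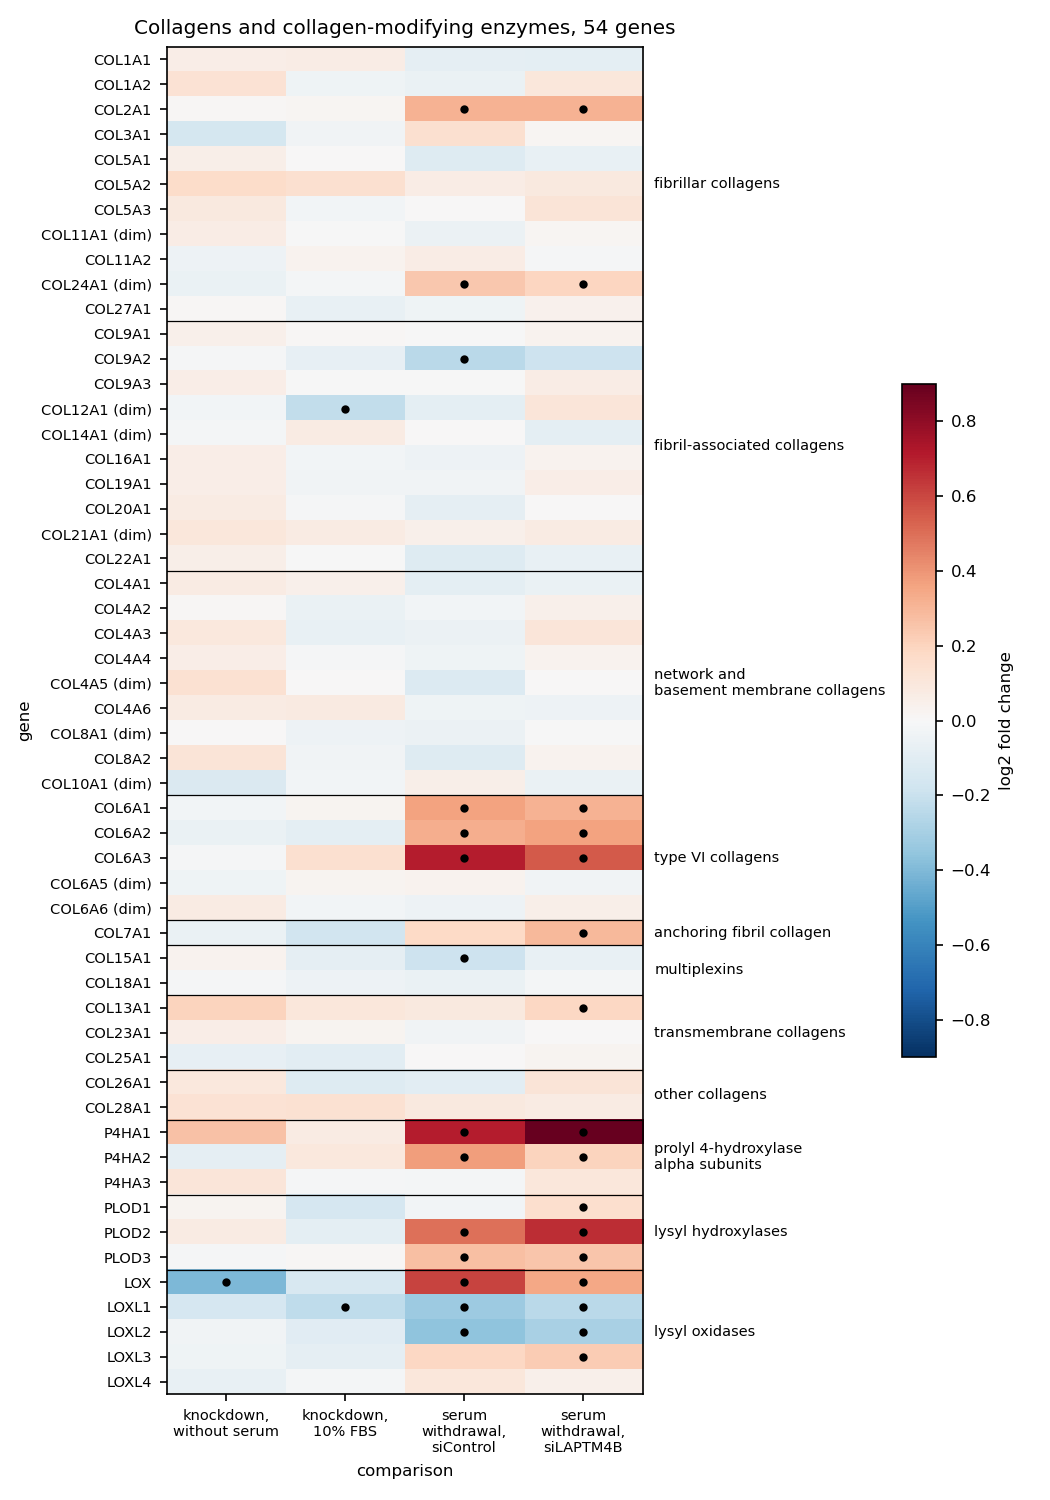
Log2 fold change of each of the 54 genes (rows, grouped by class) in 4 comparisons (columns): siLAPTM4B against siControl without serum and with 10% FBS, and 0% against 10% FBS in siControl and siLAPTM4B cells. Red is higher and blue is lower, a dot marks an adjusted p under 0.05, and the dots gather in the type VI collagens and in the 3 enzyme families under serum withdrawal.

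Type VI collagen forms beaded filaments that link cells to the matrix, and its common form is made of the alpha chains of *COL6A1*, *COL6A2* and *COL6A3*. *COL6A3* read 10.32, 10.40 and 10.38 in replicates 1 to 3 of siControl cells with 10% FBS and 11.07, 11.01 and 11.12 without serum. *COL6A2* read 10.50, 10.54 and 10.45 with 10% FBS and 10.83, 10.83 and 10.82 without serum. Each serum-starved array lay above each array with serum for both genes. *COL6A3* rose 1.63-fold (log2 fold change 0.70, SE 0.05, adjusted p = 1.9e-05). *COL6A2* rose 1.26-fold (0.33, SE 0.04, adjusted p = 0.00065), and *COL6A1* rose 1.29-fold (0.36, SE 0.04, adjusted p = 0.00049). The remaining type VI chains, *COL6A5* and *COL6A6*, were dim, with group means from 5.45 to 5.50 and from 5.90 to 5.98, and neither was called. *COL6A1* and *COL6A2* lie 93.1 kb apart on chromosome 21, and *COL6A3* is on chromosome 2.

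The prolyl 4-hydroxylase alpha subunits carry the catalytic site of the enzyme. *P4HA1* read 9.06, 9.11 and 9.27 in siControl cells with 10% FBS and 9.90, 9.69 and 9.96 without serum. Its groups did not overlap, and it rose 1.63-fold (log2 fold change 0.70, SE 0.08, adjusted p = 0.00041). *P4HA2* rose by 0.37 (SE 0.07, adjusted p = 0.0050), whereas *P4HA3* had a log2 fold change of -0.01 (95% interval -0.14 to 0.11). Among the lysyl hydroxylases, *PLOD2*, which hydroxylates lysines of the telopeptides at the ends of the chains, read 10.14, 10.24 and 10.18 with 10% FBS and 10.76, 10.59 and 10.71 without serum. The *PLOD2* groups were again apart, with a rise of 0.50 (SE 0.05, adjusted p = 0.00028). *PLOD3*, which also transfers sugars to hydroxylysine, rose by 0.27 (SE 0.04, adjusted p = 0.0018), and *PLOD1* had a log2 fold change of -0.03 (95% interval -0.13 to 0.07).

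The lysyl oxidase family moved in both directions. *LOX* read 8.33, 8.43 and 8.50 in siControl cells with 10% FBS and 8.97, 9.09 and 9.01 without serum. *LOXL1* read 11.09, 11.11 and 11.09 with 10% FBS and 10.75, 10.80 and 10.76 without serum. *LOXL2* read 10.64, 10.65 and 10.64 with 10% FBS and 10.32, 10.22 and 10.30 without serum. In none of the 3 genes did the groups overlap, *LOX* being higher and *LOXL1* and *LOXL2* lower without serum. *LOX* rose 1.52-fold (log2 fold change 0.61, SE 0.06, adjusted p = 0.00012). *LOXL1* fell by 0.33 on the log2 scale (SE 0.04, adjusted p = 0.00044) and *LOXL2* fell by 0.36 (SE 0.04, adjusted p = 0.00045). *LOXL3* (0.19, adjusted p = 0.077) and *LOXL4* (0.10, adjusted p = 0.15) were not called.

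Outside type VI, 4 of 38 collagen chains were called. *COL2A1*, the chain of the main cartilage fibril, rose by 0.32 (SE 0.04, adjusted p = 0.0012), and *COL24A1*, a minor fibrillar chain that was dim here, rose by 0.24 (SE 0.06, adjusted p = 0.020). *COL9A2*, a chain of the fibril-associated type IX collagen, read 8.49, 8.43 and 8.36 with 10% FBS and 8.21, 8.18 and 8.15 without serum. It fell by 0.25 (SE 0.05, adjusted p = 0.0052). *COL15A1*, a multiplexin of basement membrane zones, read 7.44, 7.37 and 7.35 with 10% FBS and 7.31, 7.14 and 7.16 without serum. It fell by 0.18 (SE 0.06, adjusted p = 0.046). The groups did not overlap for either gene, but the distance between the nearest *COL15A1* arrays was small against the spread within its groups. A cartilage context of *COL2A1* was not tested. Of 4 chondrocyte markers 0 were called in either serum comparison. *SOX9* had a mean signal of 10.90, but *ACAN*, *MATN1* and *COMP* read 6.94, 7.32 and 7.79. Such signals do not by themselves show expression, so a change in those genes may have been missed.

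The *COL15A1* call was lost without any 1 of 5 of the 6 arrays (adjusted p 0.073 to 0.15), the exception being replicate 1 of serum-starved siControl cells. The *COL24A1* call was lost without replicate 2 of the serum-starved siControl arrays (adjusted p = 0.061) and without replicates 2 or 3 with 10% FBS (0.060 and 0.056). With the replicate number as a block, *COL7A1*, *LOXL3* and *COL3A1* were also called, all higher (adjusted p = 0.021, 0.034 and 0.038). An exact permutation test of 3 against 3 arrays gives p = 0.1, the smallest it allows, for every gene whose groups do not overlap. The test therefore added nothing to the non-overlap.

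Serum withdrawal in siLAPTM4B cells asks the same of cells with reduced *LAPTM4B*, on 6 arrays that the previous comparison did not use. The 3 main chains of type VI collagen, *P4HA1*, *P4HA2*, all 3 lysyl hydroxylases, *LOX* and *LOXL3* rose, and *LOXL1* and *LOXL2* fell. The 16 genes called were 29.6% of the 54, beside 20.7% of all features, with 14 higher (9.74% of all features) and 2 lower (11.0% of all features). The median of the 54 genes was 0.05, beside -0.01 over all features. Of the 11 enzymes 9 were called, and of the 43 chains 7. The scatter of the serum responses places the 2 sets of arrays side by side.

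**Figure D2:**
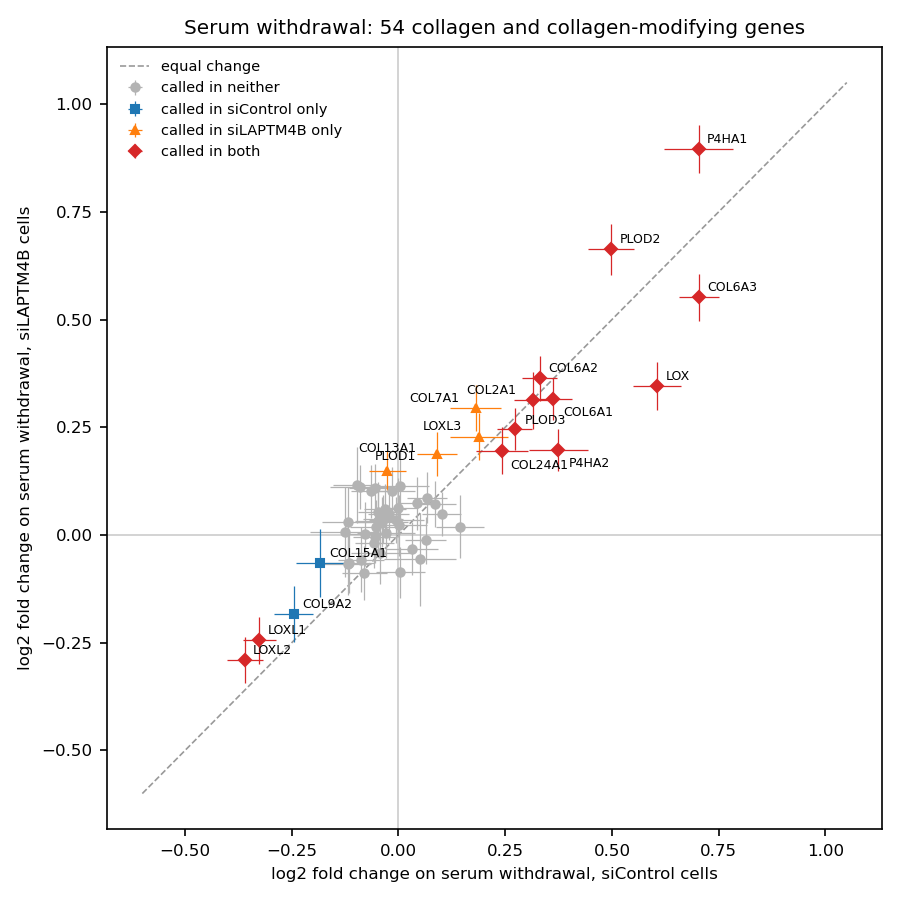
Log2 fold change on serum withdrawal in siControl cells (horizontal axis) and in siLAPTM4B cells (vertical axis), one point per gene with bars of 1 SE; symbols mark in which of the comparisons a gene was called, and the dashed line is equal change. All 12 genes called in both changed the same way on both axes, *P4HA1* and *PLOD2* above the line and *COL6A3* and *LOX* below it.

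*P4HA1* had the largest rise of the 54 genes here. It read 9.17, 9.24 and 9.24 in siLAPTM4B cells with 10% FBS and 10.12, 10.03 and 10.19 without serum, an increase of 1.86-fold (log2 fold change 0.90, SE 0.06, adjusted p = 5.0e-06). *PLOD2* read 10.02, 10.09 and 10.20 with 10% FBS and 10.77, 10.70 and 10.81 without serum, an increase of 1.58-fold (0.66, SE 0.06, adjusted p = 5.1e-05). Both genes were higher on each serum-starved array than on any array with serum. *PLOD3* rose by 0.25 (SE 0.05, adjusted p = 0.0059), *P4HA2* by 0.20 (SE 0.05, adjusted p = 0.018) and *PLOD1* by 0.15 (SE 0.05, adjusted p = 0.045).

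*COL6A3* read 10.53, 10.56 and 10.44 in siLAPTM4B cells with 10% FBS and 11.02, 11.06 and 11.11 without serum. *COL6A2* read 10.46, 10.34 and 10.42 with 10% FBS and 10.80, 10.78 and 10.74 without serum. The groups of both chains were apart, as they were in siControl cells. The rise was 0.55 for *COL6A3* (SE 0.05, adjusted p = 8.4e-05), 0.36 for *COL6A2* (SE 0.05, adjusted p = 0.0010) and 0.32 for *COL6A1* (SE 0.05, adjusted p = 0.0015), and *COL6A5* and *COL6A6* were not called. *COL2A1* (0.31, adjusted p = 0.0091), the anchoring fibril chain *COL7A1* (0.29, adjusted p = 0.0039), *COL24A1* (0.20, adjusted p = 0.031) and the transmembrane chain *COL13A1* (0.19, adjusted p = 0.030) rose as well.

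*LOX* read 8.24, 8.33 and 8.24 in siLAPTM4B cells with 10% FBS and 8.58, 8.58 and 8.70 without serum. *LOXL1* read 10.91, 10.80 and 10.89 with 10% FBS and 10.63, 10.55 and 10.68 without serum. *LOXL2* read 10.61, 10.53 and 10.48 with 10% FBS and 10.21, 10.27 and 10.26 without serum. As in siControl cells, *LOX* was higher and the other two were lower on every serum-starved array. *LOX* rose by 0.35 (SE 0.06, adjusted p = 0.0018) and *LOXL3* by 0.23 (SE 0.06, adjusted p = 0.016). *LOXL1* fell by 0.24 (SE 0.06, adjusted p = 0.012) and *LOXL2* fell by 0.29 (SE 0.05, adjusted p = 0.0040).

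Leaving out 1 array ended 6 of these 16 calls at least once. *PLOD1* was lost without any of the 6 arrays (adjusted p 0.086 to 0.15), and *COL13A1* (0.055 to 0.13) and *COL24A1* (0.058 to 0.0995) without any of 5, the exception being replicate 1 with 10% FBS. *LOXL3* was lost without serum-starved replicate 1 or 2 or replicate 2 with 10% FBS (0.051 to 0.055), *P4HA2* without serum-starved replicate 1 or 3 or replicate 3 with 10% FBS (0.051 to 0.071), and *LOXL1* without serum-starved replicate 2 (0.062).

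Of the genes called, 12 were called in the same direction in both siRNA groups, 10 higher and 2 lower, which is 85.7% of the siControl calls and 75.0% of the siLAPTM4B calls. Over all features, 3011 were called in the same direction in both, 59.5% of the siControl calls and 74.8% of the siLAPTM4B calls. The genes called in siControl cells alone were *COL9A2* and *COL15A1*, and those called in siLAPTM4B cells alone were *COL7A1*, *COL13A1*, *LOXL3* and *PLOD1*. A call in 1 siRNA group alone did not show a difference between the groups, and the test of that difference is given with the interaction below. The per-array plot gives the 12 signals of each of 12 genes.

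**Figure D3:**
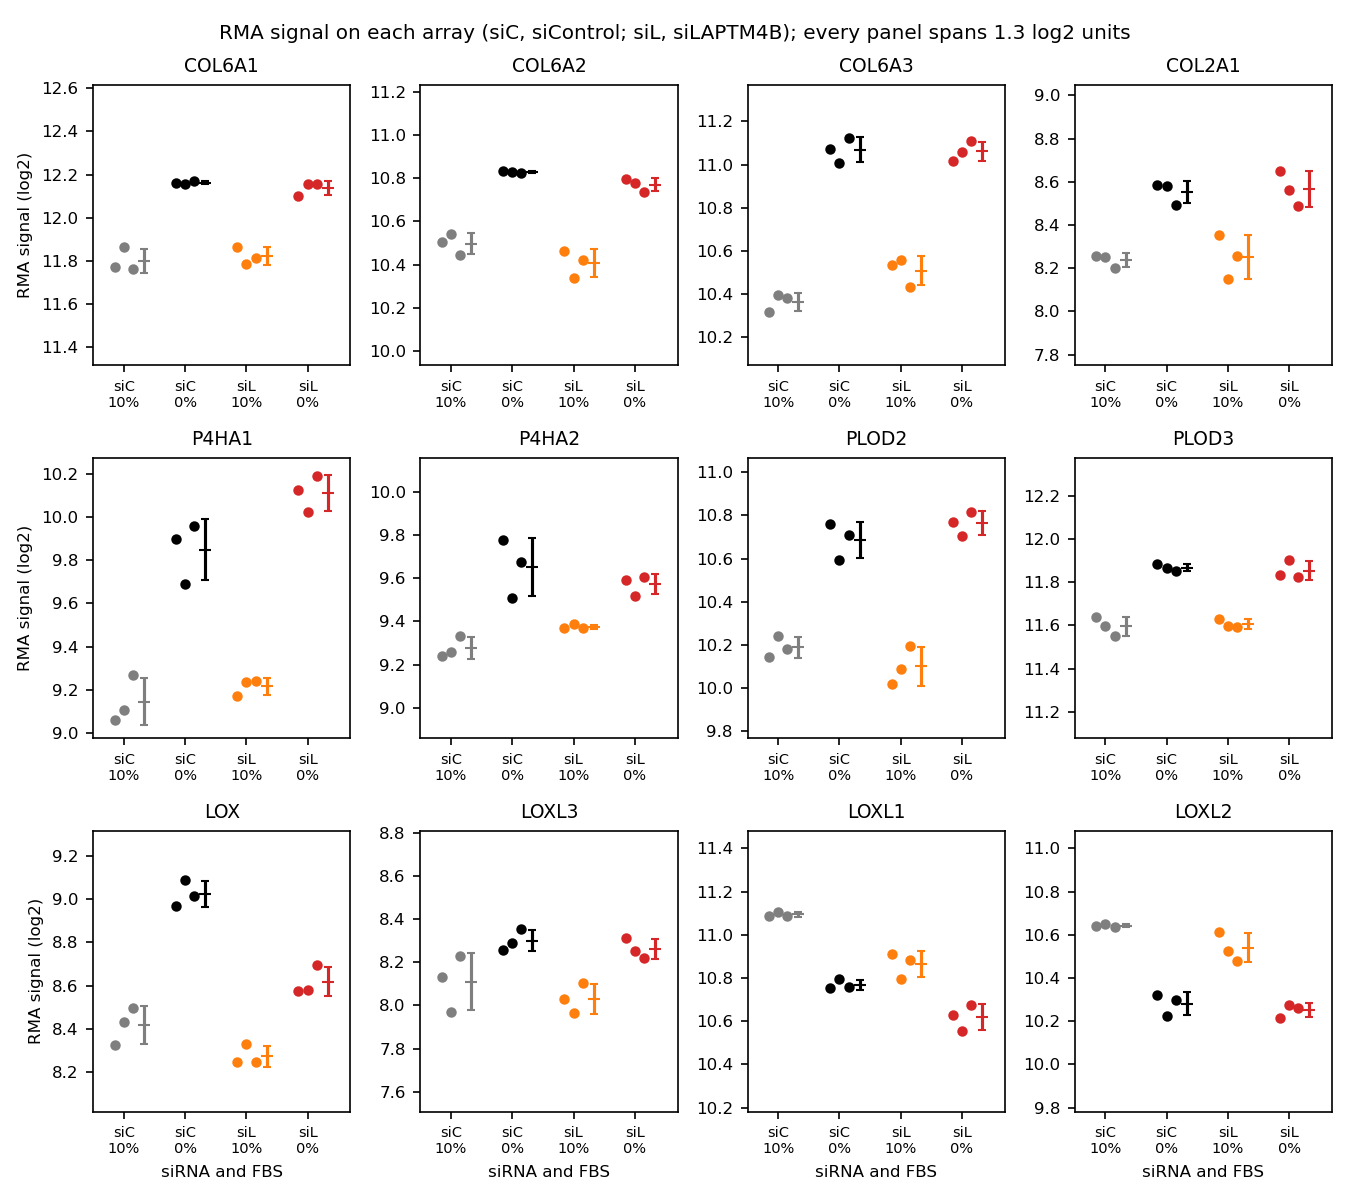
RMA log2 signal on each array (points) in siControl (siC) and siLAPTM4B (siL) cells with 10% or 0% FBS, with the group mean and SD of 3 replicates beside the points, for 12 genes. In *COL6A3*, *P4HA1*, *PLOD2* and *LOX* the serum-starved arrays stand above those with serum in both siRNA groups, in *LOXL1* and *LOXL2* they stand below, and serum-starved *LOX* lies at 8.58 to 8.70 after knockdown against 8.97 to 9.09 in siControl cells.

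Knockdown without serum compares siLAPTM4B with siControl cells under starvation. *LOX* was the only gene of the 54 to be called, and it fell. Its 3 siLAPTM4B arrays (8.58, 8.58 and 8.70) lay below its 3 siControl arrays (8.97, 9.09 and 9.01), a change to 0.755 of the control signal (log2 fold change -0.41, SE 0.05, adjusted p = 0.0083). Over all features 2.33% were called and 1.74% were called lower, so 1 of 54 (1.85%) was near the background. The median of the 54 genes was 0.04, beside 0.01 over all features. With 1 of the 6 arrays left out, the *LOX* call ended only without siLAPTM4B replicate 2 (adjusted p = 0.054). In the same comparison the markers *KRT7* (by 0.37), *PDGFRB* (by 0.39) and *LUM* (by 0.50) fell, and their part in the *LOX* result was not tested.

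Among the genes that were not called, *P4HA1* had the largest positive value (0.26, SE 0.08, adjusted p = 0.13), followed by *COL13A1* (0.20, SE 0.05, adjusted p = 0.073). Both had siLAPTM4B arrays that were all above the siControl arrays. The 95% interval of the log2 fold change lay within 0.5 on either side of 0, a factor of 1.41, for 53 of the 54 genes, the exception being *LOX*. Changes of the type VI chains were bounded more closely. For *COL6A1* the interval was -0.12 to 0.07, for *COL6A2* -0.15 to 0.04 and for *COL6A3* -0.12 to 0.10.

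Knockdown with 10% FBS called 2 of 54 genes, both lower, beside 4.08% of all features, or 2.09% in the lower direction. *LOXL1* read 11.09, 11.11 and 11.09 in siControl cells and 10.91, 10.80 and 10.89 in siLAPTM4B cells, so that the groups were apart. It fell by 0.23 (SE 0.05, adjusted p = 0.035). Without serum *LOXL1* was not called on knockdown (log2 fold change -0.15). Its siLAPTM4B arrays there (10.63, 10.55 and 10.68) also lay below its siControl arrays (10.75, 10.80 and 10.76). *COL12A1*, a fibril-associated chain whose feature was dim, read 6.54, 6.59 and 6.52 in siControl cells and 6.39, 6.32 and 6.26 in siLAPTM4B cells. It fell by 0.22 (SE 0.05, adjusted p = 0.046). Both calls were lost without any 1 of the 6 arrays, with adjusted p from 0.055 to 0.15 for *LOXL1* and from 0.054 to 0.20 for *COL12A1*. The markers *PDGFRB* (by 0.35) and *LUM* (by 0.52) fell and *EPCAM* rose by 0.51 in this comparison, and their part was not tested. *LOX* had a log2 fold change of -0.15 here (SE 0.06, adjusted p = 0.22), with its siLAPTM4B arrays at 8.24, 8.33 and 8.24 and its siControl arrays at 8.33, 8.43 and 8.50. The 95% interval lay within 0.5 of 0 for all 54 genes. The plot of knockdown effects sets the enzymes of both media beside each other.

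**Figure D4:**
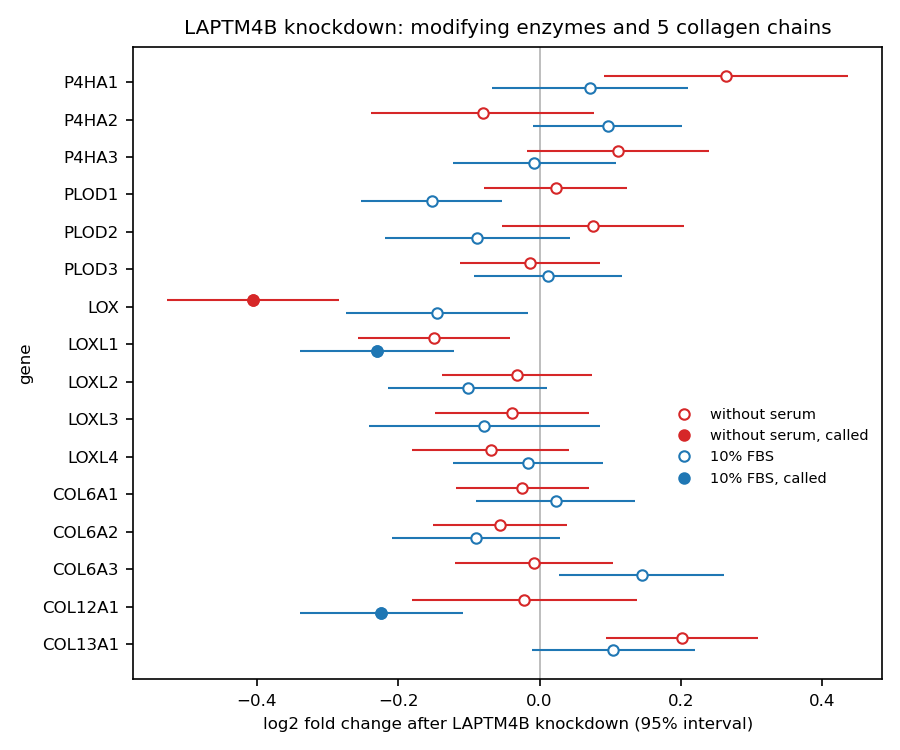
Log2 fold change after *LAPTM4B* knockdown with its 95% interval, without serum (red) and with 10% FBS (blue), for the 11 modifying enzymes and 5 collagen chains; filled points have an adjusted p under 0.05. *LOX* without serum, and *LOXL1* and *COL12A1* with 10% FBS, are the filled points, and the intervals of the 2 media overlap for each gene except *LOX*.

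The interaction of knockdown and serum, the knockdown effect without serum minus that with 10% FBS, was fitted on all 12 arrays and called 0 of the 54 genes in limma, beside 0.262% of all features. An unadjusted p under 0.05 was reached by 2 genes that were higher and 2 that were lower, beside 11.0% of all features in either direction. *LOX* had the lowest of these (interaction -0.26, SE 0.08, adjusted p = 0.23), and its 95% interval was -0.43 to -0.09. *PLOD1* followed (0.18, SE 0.05, adjusted p = 0.26). The others were *COL12A1* (0.20, adjusted p = 0.43) and *COL6A3* (-0.15, adjusted p = 0.44). For the 19 genes called in any comparison, the interaction had an adjusted p between 0.23 and 0.99. The interval lay within 0.5 of 0 for all 54 genes, which does not show that the knockdown acted alike in both media.

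Called in none of the comparisons were 35 of the 54 genes, 8 of them dim. Among the 11 fibrillar chains, those of type I collagen had group means from 8.51 to 8.66 (*COL1A1*) and from 7.19 to 7.32 (*COL1A2*), the type III chain *COL3A1* from 7.55 to 7.73, and *COL5A2* of type V collagen from 10.30 to 10.53. None of the 6 basement membrane chains of type IV collagen was called, and *COL4A5* was dim with a mean of 6.48. Their genes lie head to head in pairs that share a short stretch between their starts, 126 bases for *COL4A1* and *COL4A2*, 135 for *COL4A3* and *COL4A4*, and 379 for *COL4A5* and *COL4A6*. Group means of *COL4A1* spanned 6.96 to 7.09 and those of *COL4A2* spanned 7.64 to 7.70. The multiplexin *COL18A1*, source of the fragment endostatin, lay between 9.54 and 9.61. In the 9 network-forming and basement membrane chains the log2 fold changes on serum withdrawal ran from -0.13 to 0.05 in siControl cells and from -0.06 to 0.11 in siLAPTM4B cells.

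Other genes of collagen production were taken from 7 lists, by step in the pathway, and paired values on serum withdrawal are those of siControl and then siLAPTM4B cells. The counts stand beside the shares of all features called on serum withdrawal, 13.2% higher and 12.9% lower in siControl cells and 9.74% higher and 11.0% lower in siLAPTM4B cells. Of 12 chaperones and other modifying enzymes measured, serum withdrawal called 0 higher and 4 lower in siControl cells and 1 higher and 3 lower in siLAPTM4B cells. The prolyl 3-hydroxylase *P3H2* fell in both (by 0.72 and by 0.91) and so did the prolyl isomerase *FKBP10* (by 0.26 in each). *SERPINH1*, the collagen chaperone HSP47, rose by 0.19 in siLAPTM4B cells (adjusted p = 0.034) and fell by 0.31 on knockdown with 10% FBS (adjusted p = 0.0073). These comparisons share the siLAPTM4B arrays with 10% FBS. Without serum *SERPINH1* was not called on knockdown, with lower group means in siLAPTM4B (12.67) than in siControl cells (12.90).

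Of 12 genes of procollagen export, 1 was called higher and 1 lower in siControl cells and 1 higher and 2 lower in siLAPTM4B cells on serum withdrawal. *MIA3*, which loads procollagen into carriers, rose by 0.26 and 0.24, and the coat protein gene *SEC24D* fell by 0.29 and by 0.20. *SEC24D* also fell on knockdown with 10% FBS (by 0.33, adjusted p = 0.0099). Without serum *SEC24D* was not called on knockdown, with lower group means in siLAPTM4B (9.30) than in siControl cells (9.53). Of 11 procollagen proteinases and enhancers, 1 was called higher and 2 lower in siControl cells and 0 higher and 1 lower in siLAPTM4B cells. The convertase *FURIN* fell by 0.85 and by 0.73, and the enhancer *PCOLCE* fell by 0.18 in siControl cells (adjusted p = 0.013).

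Of 14 fibril-associated proteins, 3 were called lower in siControl and 2 in siLAPTM4B cells on serum withdrawal, beside 12.9% and 11.0% of all features. On knockdown 2 were called lower in each medium, beside 1.74% of all features without serum and 2.09% with 10% FBS. Those 2 were *LUM*, a small proteoglycan of fibrils, and *SPARC*, a collagen-binding protein. *LUM* fell by 1.87 and by 1.85 on serum withdrawal and by 0.50 (without serum) and 0.52 (10% FBS) on knockdown. *SPARC* fell by 0.47 and by 0.48 on serum withdrawal and by 0.21 and 0.20 on knockdown. *LUM* is also one of the fibroblast markers.

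Of 11 collagen receptors and uptake genes, 4 were called higher and 2 lower in siControl cells and 2 higher and 2 lower in siLAPTM4B cells, beside 13.2% and 12.9% of all features in the former and 9.74% and 11.0% in the latter. *ITGA10*, an integrin subunit that binds collagen, rose 3.24-fold and 3.02-fold on serum withdrawal and rose on knockdown by 0.36 without serum and 0.46 with 10% FBS. *ITGA11*, a fibrillar collagen receptor subunit, fell by 0.55 on knockdown with 10% FBS (adjusted p = 0.0014). It rose by 0.25 on withdrawal in siLAPTM4B cells, and these comparisons share arrays. Without serum *ITGA11* was not called on knockdown, with lower group means in siLAPTM4B (9.73) than in siControl cells (9.92). *MRC2*, which takes up collagen, fell by 0.36 and by 0.39. Of 8 genes of proline and ascorbate supply, 3 fell in each siRNA group, namely *PYCR3*, *OAT* and the ascorbate transporter *SLC23A2*, and 0 rose.

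The TGF-beta list, whose ligands are known inducers of collagen and *LOX*, had 2 of 11 genes higher and 4 lower in each siRNA group, beside 13.2% higher and 12.9% lower of all features in siControl and 9.74% and 11.0% in siLAPTM4B cells. The ligand *TGFB2* fell by 1.39 and by 1.47, the mediator *SMAD3* fell by 0.48 and by 0.44, the inhibitor *SMAD7* fell by 0.61 and by 0.71, and the target *CCN2* fell by 0.88 and by 0.97. The receptors *TGFBR1* and *TGFBR2* rose, *TGFBR2* by 0.50 and 0.71. On knockdown with 10% FBS, 2 of the 11 genes were called lower, *TGFBR2* (by 0.33) and *TGFBR3* (by 0.29). On knockdown without serum 0 of the 11 genes were called. Group means there were also lower in siLAPTM4B than in siControl cells, 11.81 against 11.92 for *TGFBR2* and 8.795 against 9.063 for *TGFBR3*. A call in 1 medium alone does not show a difference between the media. Over all 7 lists the interaction called 0 genes in limma, and of the 79 genes measured an unadjusted p under 0.05 was reached by 7 that were higher and 3 that were lower, beside 11.0% of all features in either direction.

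Several of these calls were lost when 1 array was left out, which also leaves fewer arrays in the fit. On knockdown without serum, *SPARC* was lost without any of the 6 arrays (adjusted p 0.11 to 0.16), *LUM* without any but siLAPTM4B replicate 2 (0.053 to 0.077) and *ITGA10* without any but siLAPTM4B replicate 1 (0.076 to 0.14). On knockdown with 10% FBS, *SPARC* was lost without any of the 6 arrays (0.084 to 0.17), *TGFBR3* without siControl replicate 2 or 3 or siLAPTM4B replicate 3 (0.055 to 0.072) and *SERPINH1* without siControl replicate 2 (0.052). On serum withdrawal in siLAPTM4B cells, *SERPINH1* was lost without any but serum-starved replicate 1 (0.066 to 0.14) and *SEC24D* without any but serum-starved replicate 3 and replicate 1 with 10% FBS (0.083 to 0.091). In siControl cells, *PCOLCE* was lost without serum-starved replicate 2 (0.051), *OAT* without any but replicate 1 of either medium (0.065 to 0.092), and *SLC23A2* without any but replicate 1 with 10% FBS (0.053 to 0.11).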

How the data were processed

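RNA of Calu-6 cells in 4 groups of 3 biological replicates was measured on 12 Affymetrix Human Gene 1.0 ST arrays. The deposited values are log2 signals made by the authors with robust multi-array average (RMA), in which background is corrected, arrays are quantile-normalized and the probes of a feature are summarised. Quantile normalization gives all arrays one distribution, so a shift shared by most genes would not be seen. The annotation version is not given in the sources used here. Arrays have no read depth, and the number of arrays limits the precision: the median half-width of a 95% interval was 0.13 for a pairwise comparison.

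Features were named from the platform annotation, and the 19460 features with exactly 1 symbol were tested. Features with several symbols (1754) or none (12038) were left out, including 1 that *COL1A2* shares with another gene. Knockdown was compared within each medium and serum withdrawal within each siRNA on 6 arrays, and the interaction on 12, with limma 3.58.1 in R 4.3.3 and Benjamini-Hochberg adjustment over all features. A gene is called at an adjusted p under 0.05. All p-values are two-sided. In data simulated with independent noise, the code returned mean estimates near the changes put in. The share of those changes that would be called is not given here.

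The labels call the replicates biological, but whether each was a separate transfection is not given in the sources used here, so p-values measure the spread between these arrays, which may be partly technical. Deviations of same-numbered siControl arrays correlated weakly across media (0.37, 0.13 and 0.20). For knockdown without serum the values were much alike (0.39, 0.07 and 0.18). In each comparison other than serum withdrawal in siControl cells, at least 1 pair fell under 0.1. These correlations do not establish matched replicates, so the block is given as an alternative only. The genes, lists, motifs and tests were chosen with earlier results of these data known. Genes were named in the text when called in any comparison, with array values for those called on knockdown and for the 4 largest changes per direction on serum withdrawal, and at most 4 called genes per direction from each pathway list. Lists that held several names of a gene counted it once. Alternatives were other feature filters, a fit of all arrays, an intensity trend with robust prior, median centring and the replicate block. Further alternatives were an unadjusted p under 0.01, an ordinary t-test with adjustment, gene means and leaving out each array.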

Additional observations from a re-analysis of the deposited data

Results flagged for a closer look

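The target of the siRNA differed in its knockdown between media. The interaction for *LAPTM4B*, the knockdown effect without serum minus that with 10% FBS, was 0.33 on the log2 scale (SE 0.06, limma adjusted p = 0.035), since the signal fell by 1.42 without serum and fell by 1.75 with 10% FBS. The arrays of the 2 siRNAs did not overlap in either medium. The interaction call was lost without any 1 of the 12 arrays (adjusted p 0.052 to 0.10), with all features tested (0.095) and with arrays centred on their medians (0.079). The knockdown effects on collagen genes in the 2 media are therefore set beside unequal residual *LAPTM4B*, and its part in them was not tested.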

How the results depend on the processing

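The number of the 54 genes called on knockdown without serum was 1. It became 2 in a fit of all 12 arrays, 5 with an intensity trend and robust prior and 2 with the replicate block. It became 3 at an unadjusted p under 0.01 and 0 with the ordinary t-test with adjustment. With 10% FBS it was 2, and became 0 with all features or the t-test, 1 with median centring or with the replicate block, and 3 at an unadjusted p under 0.01. It stayed at 2 in the fit of all arrays and with the trend, where *COL12A1* was lost (adjusted p = 0.0503 and 0.060) and *PLOD1* was gained (0.033 and 0.013). Leaving out dim features gave 1, since the dim *COL12A1* was then not tested. The interaction count of 0 became 2 at an unadjusted p under 0.01. Leaving out 1 array gave 0 to 1 without serum, 0 to 0 with 10% FBS, 12 to 15 and 11 to 15 for serum withdrawal in siControl and siLAPTM4B cells, and 0 to 0 for the interaction. The serum counts of 14 and 16 lay between 11 and 17 under every alternative, and were 17 and 15 with the replicate block. *LOX* without serum was lost with the t-test (adjusted p = 0.093), and *P4HA1* was gained with the block (0.027). Over all genes, 454, 793 and 51 calls (knockdown without serum, with 10% FBS, interaction) became 134, 279 and 17 with all features, 1126, 1686 and 163 with the trend, 1291, 1574 and 682 at an unadjusted p under 0.01, 118 to 290, 228 to 482 and 19 to 51 with 1 array left out. They became 687 and 1370 in the fit of all arrays and 27 and 177 with the t-test, and the interaction gave 84 with the block. No named result changed direction while called. The cause of the other changes was not tested. The block ended the calls of *COL12A1* with 10% FBS (0.051) and of *SPARC* on knockdown without serum (0.055) and with 10% FBS (0.062). The calls of *PLOD1* and *SEC23A* on serum withdrawal in siLAPTM4B cells also ended with the block (0.071 and 0.053). Signals under 6.5 limit the reading of 10 genes. The cut was not tested as a limit of detection, and a signal above it does not by itself show expression. The endothelial markers *CDH5* and *VWF* read 7.33 and 6.75. Chains not called at such levels, among them *COL4A1* (7.03) and *COL1A2* (7.24), may also have changed without a call.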
